A study of Mus musculus with 31 samples.

Results

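The mitochondrial ribosomal protein genes of the mouse were examined in whole-brain RNA of 31 BXD/TyJ strains. Members were all genes with a single symbol of the form Mrpl or Mrps, a number and at most 1 further letter. The rule found 72 genes among 15096 named genes on the array, 47 named Mrpl for the large subunit and 25 named Mrps for the small subunit, each with 1 probe. RefSeq holds 78 protein-coding mouse symbols of this form, and the 6 that were not measured under such a symbol were Mrpl22, Mrpl47, Mrps2, Mrps26, Mrps27 and Mrps35. BXD strains are recombinant inbred lines from crosses of C57BL/6J and DBA/2J mice, and each strain carries a fixed mosaic of the genomes of both parents. All mice were males aged 8 weeks. The RNA of 3 animals of a strain was pooled, labelled with Alexa Fluor 647 and hybridised on 1 glass array, so that strain and array differences cannot be told apart. On every array the other channel, in Alexa Fluor 555, held C57BL/6J whole-brain RNA from males of the same age with an added spike-in mix, and dyes were never swapped. The series is titled as a study of how expression differs genetically between and within individuals.

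Mitochondrial ribosomes translate the few proteins encoded by mitochondrial DNA, all of them core subunits of the oxidative phosphorylation complexes. Their RNAs come from mitochondrial DNA, whereas all of their proteins are encoded in the nucleus, made in the cytosol and imported. Proteins that carry the numbers of a bacterial ribosomal protein have relatives there, while those with higher numbers are mostly additions of the mitochondrial ribosome. Neurons depend on oxidative phosphorylation for much of their energy supply, and inherited defects of these proteins can affect the brain. Names and places do not always match: the proteins of Mrps30 and Mrps18a sit in the large subunit, Mrps24 encodes the relative of bacterial protein S3, and the protein of Mrps36 was later assigned to the alpha-ketoglutarate dehydrogenase complex.

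Values were log ratios, taken as log2 of strain over C57BL/6J. The log base and the direction were not stated, so with the opposite direction every sign given here would turn, while spreads, correlations and counts in both directions together would stay. The reference counts as 1 control sample, and a mean ratio tested against 0 therefore leaves out the spread of C57BL/6J itself, and constant dye and spot effects remain in it. A pair of sets of arrays, which the labels do not describe, stood apart from the other 16 on principal components of all features: 7 arrays on the first component, with 28.7% of the variance, and 8 on the second, with 11.9%. The 7 were BXD38, BXD36, BXD28, BXD23, BXD20, BXD8 and BXD6, and the 8 were BXD42, BXD40, BXD39, BXD34, BXD33, BXD27, BXD22 and BXD15. Because a log ratio carries no level, the labelled tissue could not be checked by how strongly brain genes were expressed. In a tissue such as whole brain, fewer cells of a type and less RNA per cell cannot be told apart.

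Of the 72 genes, 34 had a mean log ratio above 0 and 13 below 0 in limma with Benjamini-Hochberg adjustment over all 21262 features at 0.05, and 25 did not pass. That is 65.3% called, against 76.1% of all features (42.1% above and 33.9% below 0) and 75.6% of named genes. Over the 31 arrays the share among mitochondrial ribosomal genes was thus below the background. On the 16 arrays alone 55 of the 72 genes passed, where 76.1% of all features did, so it was not below the background there. A call by itself says little on this platform. Over the 31 arrays, 31 of 47 large-subunit genes passed (23 above, 8 below), and 16 of 25 small-subunit genes (11 above, 5 below). These are 66.0% and 64.0%. The median of the means was 0.09 over the 72 genes and 0.03 over all named genes. Against a change of 1.2-fold, 18 genes passed (11 above, 7 below), or 13 Mrpl and 5 Mrps genes, where 27.9% of all features passed. The 43 genes related to bacterial ribosomal proteins by number, with Mrps24 added, had 24 calls (16 above, 8 below) and a median mean of 0.01. The 29 others had 23 calls (18 above, 5 below) and a median mean of 0.16. The difference between these classes was not tested.

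**Figure D1:**
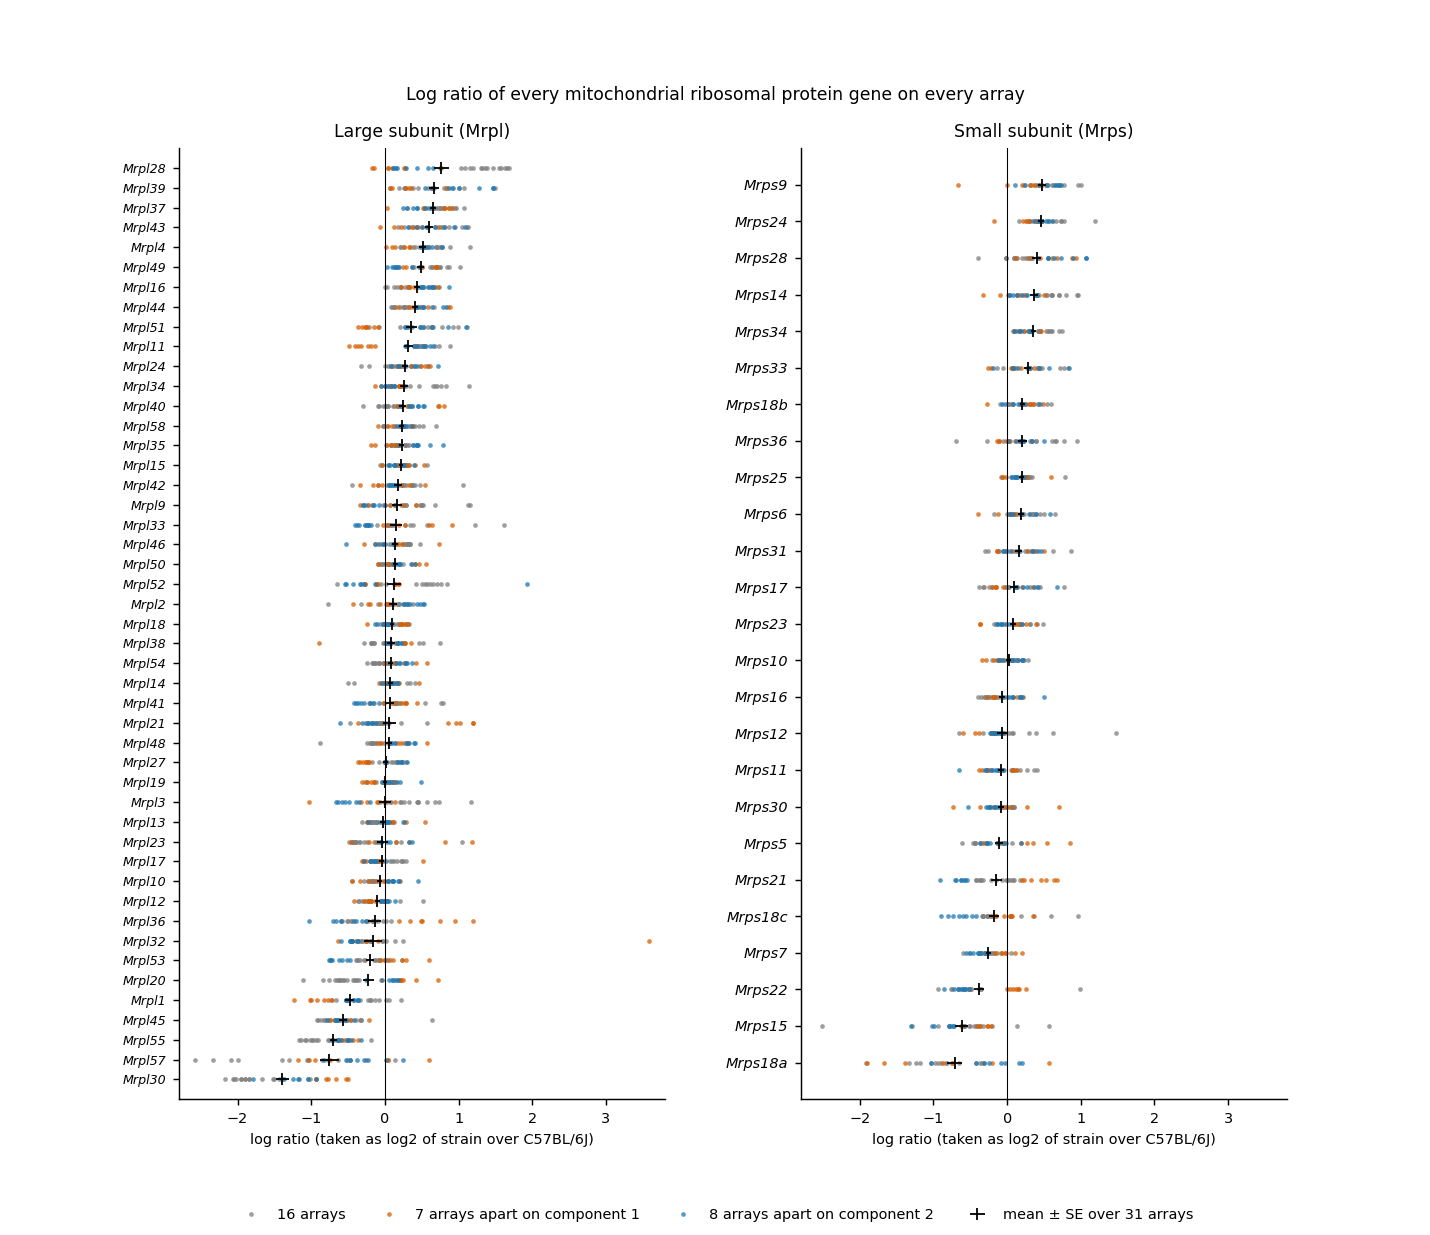
Log ratio (taken as log2 of strain over C57BL/6J, horizontal axis) of each of the 72 genes on each of 31 arrays, by subunit and ordered by mean. Points are arrays, coloured by array group, and crosses with bars are means ± SE. Means run from −1.39 for Mrpl30 to 0.77 for Mrpl28, and 1 array of Mrpl32 lies at 3.58.

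Among large-subunit genes with positive means, Mrpl28, which encodes the relative of bacterial protein L28, had the highest mean of all 72. Its log ratios had a lowest value of −0.17 in BXD38, a median of 0.74 and a highest of 1.69 in BXD2, with a mean of 0.77 ± 0.62 (SD, n = 31; limma adjusted p = 1.0e-07). The arrays of this gene fell apart by array group: the 16 averaged 1.31, the 7 averaged 0.05 and the 8 averaged 0.31. Mrpl39, a component that mitochondrial ribosomes added, ranged from 0.07 in BXD11 through a median of 0.64 to 1.50 in BXD5, with a mean of 0.67 ± 0.42 (SD, n = 31; limma adjusted p = 6.0e-10). Mrpl37, related in sequence to Mrps30, ranged from 0.03 in BXD6 through 0.67 to 1.07 in BXD29, with a mean of 0.65 ± 0.24 (SD, n = 31; limma adjusted p = 6.0e-15). Both had a positive value on each of the 31 arrays. Mrpl43, a protein specific to the mitochondrial particle, ranged from −0.07 in BXD36 through 0.57 to 1.13 in BXD31 and averaged 0.60 ± 0.31 (SD, n = 31). Mrpl4, whose bacterial relative lines the tunnel through which the new chain leaves, averaged 0.51 ± 0.25, and Mrpl49 averaged 0.48 ± 0.27 (both SD, n = 31). Each of these last 2 genes was positive on all 31 arrays.

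At the other end, Mrpl30, the relative of bacterial L30, had the lowest mean. It ranged from −2.17 in BXD29 through a median of −1.40 to −0.50 in BXD38, with a mean of −1.39 ± 0.51 (SD, n = 31; limma adjusted p = 1.1e-15), and was negative on all arrays. Mrpl55 was also negative on all arrays, with a mean of −0.70 ± 0.25 (SD, n = 31). Mrpl45, which holds the particle at the inner membrane near the tunnel exit, averaged −0.57 ± 0.29 (SD, n = 31) and lay above 0 only in BXD32, at 0.63. The probes of all 3 genes, and those of Mrpl1 and Mrpl12, were the eighth of 8 consecutive spots on the array. The 1951 named probes at that place averaged −0.54, against −0.01 to 0.08 at the other 7 places, and the 5 member probes there averaged −0.65. The part of the place in these means was not tested gene by gene. With all such eighth probes left out, 42 of 67 genes passed (34 above, 8 below 0), where 74.5% of the remaining features did (46.7% above, 27.8% below).

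Of low means outside that place, the lowest was that of Mrpl57, a small protein of the large subunit. It ranged from −2.58 in BXD12 through −0.64 to 0.59 in BXD20, with a mean of −0.75 ± 0.75 (SD, n = 31; limma adjusted p = 3.7e-06). It was also the most variable gene of the 72, with 25 arrays below and 6 above 0. Mrps18a, 1 of 3 measured relatives of bacterial S18, ranged from −1.91 in BXD24 through −0.75 to 0.56 in BXD20 and averaged −0.71 ± 0.60 (SD, n = 31; limma adjusted p = 2.1e-07). Its relatives differed from it: the mean was 0.21 for Mrps18b and −0.18 for Mrps18c. Mrps15, the relative of a protein that binds the small-subunit RNA early in assembly, ranged from −2.51 in BXD11 through −0.58 to 0.56 in BXD12. Its mean was −0.61 ± 0.52 (SD, n = 31; limma adjusted p = 2.0e-07), and without BXD11 it was −0.55 ± 0.38 (SD, n = 30).

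In the small subunit the highest means were those of Mrps9 at 0.47 ± 0.31, Mrps24 at 0.46 ± 0.23 and Mrps28 at 0.40 ± 0.35 (SD, n = 31). A single sign on all 31 arrays was found for 8 of the 72 genes, or 11.1%, against 9.96% of named genes. These were Mrpl4, Mrpl37, Mrpl39, Mrpl44, Mrpl49 and Mrps34 above 0, and Mrpl30 and Mrpl55 below 0. Mrpl44, a protein with a ribonuclease III-like fold, ranged from 0.09 in BXD24 to 0.89 in BXD20 around a mean of 0.41 ± 0.23 (SD, n = 31). Mrps34, the only one of the 8 in the small subunit, ranged from 0.07 in BXD36 to 0.75 in BXD11 around a mean of 0.35 ± 0.18 (SD, n = 31).

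The spread of a gene over arrays, which mixes strain and array differences, had a median SD of 0.28 over the 72 genes and 0.27 over all named genes. It ran from 0.14 for Mrpl18 and 0.15 for Mrpl15 to 0.75 for Mrpl57, 0.72 for Mrpl32, 0.62 for Mrpl28 and 0.60 for Mrps18a. These wide spreads were of different kinds. That of Mrpl32, whose protein is cleaved by an inner membrane protease before it joins the ribosome, came from 1 array: BXD36 was at 3.58, the next highest value was 0.24 in BXD18, and the median was −0.31. Without BXD36 the mean of Mrpl32 moved from −0.16 to −0.28 and the SD from 0.72 to 0.20. That of Mrpl57 was shared by several arrays, and without its lowest array, BXD12, the SD was 0.69. An extreme array separated from the next by more than 33.3% of the range of the gene was found for 11 of the 72 genes, or 15.3%, and for 14.0% of named genes. Besides Mrpl32 with 79.2% of its range, these were Mrpl19, Mrpl38, Mrpl42, Mrpl45, Mrpl48, Mrpl52, Mrps9, Mrps12, Mrps15 and Mrps22. Mrpl52 was at 1.92 in BXD27 and at most 0.84 elsewhere, and Mrps12, whose protein lies at the decoding centre, was at 1.48 in BXD18 and at most 0.63 elsewhere.

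Array groups accounted for a median of 32.9% of the variance of a mitochondrial ribosomal gene and 33.9% of that of any named gene. The groups were found in the same data, so the following values are a description with no test. On the 7 arrays, 6 of the 72 genes lay wholly above or wholly below the 16 arrays, where 8.52% of named genes did (4.03% above, 4.49% below). Those above were Mrpl20, Mrpl30, Mrpl36 and Mrps21, and those below were Mrpl11 and Mrpl28. On the 8 arrays, 6 genes did so too, where 4.16% of named genes did (1.72% above, 2.44% below), with Mrpl20 above and Mrpl3, Mrpl28, Mrpl53, Mrps18c and Mrps21 below.

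The widest such difference was that of Mrpl28, at −1.25 for the 7 and −0.99 for the 8 arrays. Mrpl11, at the base of the stalk that recruits translation factors, ranged from 0.29 to 0.88 on the 16 arrays and from −0.48 to −0.13 on the 7, and 86.3% of its variance lay between groups. Mrpl30 was 1.01 higher on the 7 arrays, so that its negative mean was deepest on the 16, at −1.75. Mrpl20, a relative of a bacterial protein needed for early assembly, averaged −0.59 on the 16 arrays, 0.28 on the 7 and 0.06 on the 8. Mrps21 moved in opposite directions, with 0.58 above the 16 on the 7 arrays and −0.52 on the 8. Genes of the same particle thus moved in both directions between array groups, and so did named genes at large. The share of members that lay apart was near that of named genes on the 7 arrays and above it on the 8. The mean over all 72 genes hid the movements of single members: its median was 0.06 on the 16 arrays, 0.05 on the 7 and 0.03 on the 8.

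**Figure D2:**
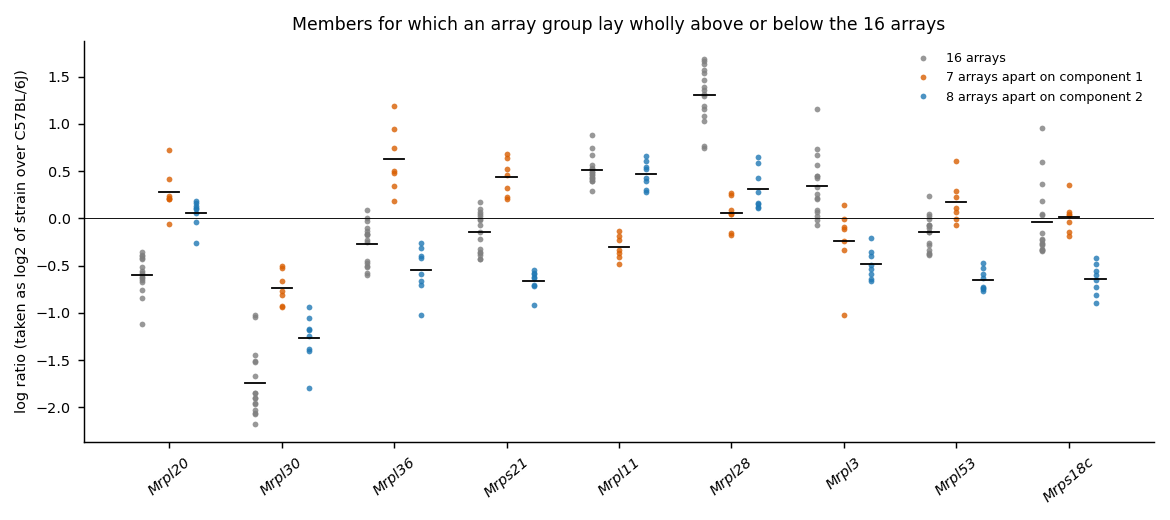
Log ratio (taken as log2, vertical axis) on each array of the 9 genes for which the 7 or the 8 arrays lay wholly above or below the other 16. Points are arrays, coloured by array group, and bars are group means. The 16 arrays of Mrpl28 all lie above the other 15, and Mrps21 is high on the 7 and low on the 8 arrays.

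Whether the genes rose and fell together over strains was described by Pearson correlation of each pair, after values were centred within the 3 array groups. The 31 values of a pair share the array, the labelling and the normalisation, so correlations are given without p. The mean over 2556 pairs of the 72 genes was 0.028, against 0.00091 over all pairs of named genes. With the first 3 principal components removed in place of centring, it was 0.0048, against 0.00046. Cytosolic ribosomal proteins, which form the ribosome outside mitochondria, had a mean of 0.244 over 68 genes. Subunits of oxidative phosphorylation, the respiratory complexes and ATP synthase, had 0.117 over 76 genes. The mitochondrial ribosomal genes thus moved together far less than the genes of the cytosolic ribosome did. Pairs above 0.5 made up 2.31% of their pairs (59), 8.77% of oxidative phosphorylation pairs, 21.6% of cytosolic ribosomal pairs and 1.34% of all pairs. Pairs below −0.5 made up 0.82% (21) against 1.08% of all pairs.

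The subunits had different values. Small-subunit genes had a mean pairwise correlation of 0.071, large-subunit genes 0.0084 and pairs across subunits 0.036. On the 16 arrays alone, the means were 0.140, 0.0060 and 0.044. On the 7 arrays they were −0.0041, 0.030 and 0.037, and on the 8 they were −0.025, −0.0050 and 0.012, so the small subunit had the highest of the 3 values on the 16 arrays and the lowest on the 7 and the 8. A single strain contributed much of it: without BXD5 the small-subunit mean was 0.046 over the remaining arrays, and 0.100 over the remaining 15 of the 16. Leaving out any other array gave at most 0.078 over all arrays, without BXD36, and at most 0.157 on the 16, without BXD24. The large subunit stayed between 0.0039 and 0.011 over such omissions from all arrays and between 0.0014 and 0.010 on the 16. With Mrps30 and Mrps18a counted in the large subunit, where their proteins sit, the small-subunit mean was 0.086 and the large-subunit mean 0.0083. The differences between subunits were not tested.

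**Figure D3:**
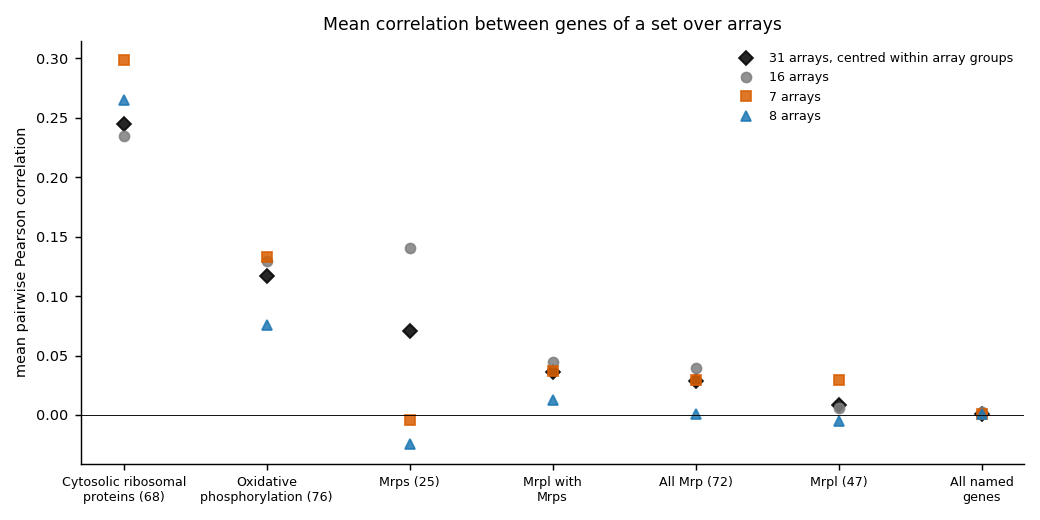
Mean pairwise Pearson correlation over arrays (vertical axis, no unit) for mitochondrial ribosomal genes, each subunit, pairs across subunits and comparison sets, over 31 centred arrays and within array groups. Cytosolic ribosomal proteins reach 0.244 over 31 arrays, mitochondrial ribosomal genes 0.028.

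The gene with the highest mean correlation with the other members was Mrps24, at 0.158, followed by Mrps6 at 0.144, Mrpl58 at 0.127, Mrpl38 at 0.113 and Mrpl41 at 0.106. Mrps6 is the relative of bacterial S6, and Mrpl58, also known as ICT1, frees the chain from stalled mitochondrial ribosomes. Mrps24 ranged from −0.17 in BXD8 through 0.43 to 1.19 in BXD5, Mrps6 from −0.40 in BXD8 through 0.20 to 0.65 in BXD5, and Mrpl58 from −0.10 in BXD8 through 0.23 to 0.70 in BXD5. All 3 genes were thus lowest in the same strain and highest in the same strain. BXD5 was the highest array for 9 of the 72 genes, or 12.5%, and for 5.53% of named genes, and 5 of the 9 were Mrps genes. BXD8 was the lowest for 8 genes, or 11.1%, and for 6.62% of named genes, and 5 of the 8 were Mrps genes. Another strain, BXD36, was also lowest for 8 genes, and for 8.32% of named genes. It was highest for 7 genes, or 9.72%, and for 7.87% of named genes.

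In single pairs, Mrps24 and Mrps6 correlated at 0.699, with 0.809 on the 16 arrays, 0.769 on the 7 and 0.137 on the 8. Mrpl38 and Mrps9 had the highest correlation of any pair, 0.761, with 0.722, 0.916 and 0.551 in the 3 groups, and both were lowest on BXD36. For Mrpl17 and Mrpl32 the 0.703 over all arrays was 0.350 on the 16 and −0.104 on the 8, since the BXD36 value of Mrpl32 lies in the 7. The most negative pair was Mrpl1, of the stalk at which used transfer RNA leaves, with Mrpl27, at −0.726 over all arrays and −0.822, −0.442 and −0.651 in the groups. Of the 72 genes, 49 had a positive mean correlation with the others. The lowest were Mrps15 at −0.112, Mrpl24 at −0.086, Mrpl52 at −0.080 and Mrpl37 at −0.074. Mrpl37, with a positive ratio in all strains, thus ran slightly against the other members across strains.

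**Figure D4:**
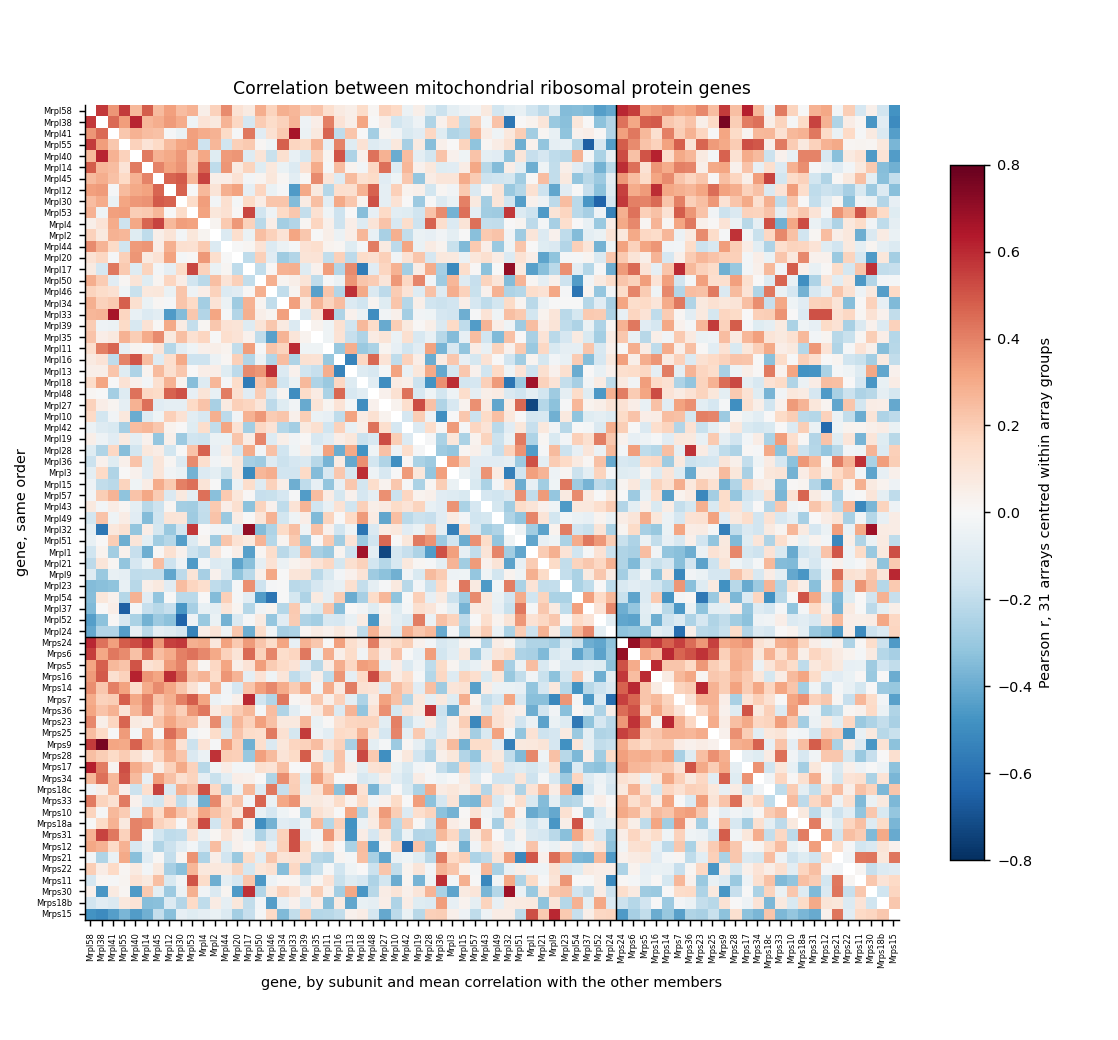
Pearson correlation of every pair of the 72 genes over 31 arrays centred within array groups (colour scale, no unit), ordered by subunit. Most pairs are near 0, and 59 of 2556 pairs exceed 0.5.

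The promoters of the 3 genes that correlated best with the other members are printed to show what they share in sequence. They are RefSeq windows of 300 bases on build GRCm38.p6, from 250 bases before to 50 after the start of the gene, written 5′ to 3′ along the gene. Mrps24 lies at chr11:5707652-5707951 on the minus strand, Mrps6 at chr16:92058086-92058385 on the plus strand and Mrpl58 at chr11:115403502-115403801 on the plus strand. Capitals mark matches to the motifs searched, on either strand.
Mrps24: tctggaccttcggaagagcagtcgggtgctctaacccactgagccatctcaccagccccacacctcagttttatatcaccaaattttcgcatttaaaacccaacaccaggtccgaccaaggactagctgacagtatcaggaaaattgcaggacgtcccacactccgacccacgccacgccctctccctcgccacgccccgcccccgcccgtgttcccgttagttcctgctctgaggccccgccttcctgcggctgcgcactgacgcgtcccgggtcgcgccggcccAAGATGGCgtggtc
Mrps6: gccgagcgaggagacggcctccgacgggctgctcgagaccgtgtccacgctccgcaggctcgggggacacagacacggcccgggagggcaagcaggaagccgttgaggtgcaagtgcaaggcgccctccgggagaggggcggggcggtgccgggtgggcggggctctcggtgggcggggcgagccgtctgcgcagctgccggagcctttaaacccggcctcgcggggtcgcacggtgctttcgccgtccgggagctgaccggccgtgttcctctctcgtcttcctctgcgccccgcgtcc
Mrpl58: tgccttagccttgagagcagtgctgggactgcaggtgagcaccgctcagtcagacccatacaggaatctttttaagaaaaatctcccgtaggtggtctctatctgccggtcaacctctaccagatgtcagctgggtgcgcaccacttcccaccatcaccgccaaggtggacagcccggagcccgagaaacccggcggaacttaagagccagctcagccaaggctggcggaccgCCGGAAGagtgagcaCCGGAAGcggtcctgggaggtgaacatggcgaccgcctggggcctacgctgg
The motifs were GCATGCGC, a part of the site of NRF1, CCGGAAG for ETS-family factors such as GABP, and AAGATGGC for YY1. All 3 factors are known as regulators of nuclear genes for mitochondria. Mrps24 held 1 match to the YY1 letters just after its start, Mrpl58 held 2 matches to the ETS letters, and Mrps6 held none, although Mrps6 and Mrps24 correlated at 0.699.

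Over the 64 members with a window, 35 (54.7%) held at least 1 of the 3 motifs. The share was 18.7% for protein-coding genes, 21.6% for genes on the array and 14.9% for all genes with a window. The ETS letters were found in 23 genes (35.9%, against 14.9% of genes on the array and 9.93% of all genes with a window). The YY1 letters were in 11 (17.2%, against 4.19% and 3.19%) and the NRF1 letters in 7 (10.9%, against 4.68% and 3.05%). At least 1 motif was in 23 of 41 large-subunit and 12 of 23 small-subunit genes. Members with a motif did not have the higher correlations: the median of the mean correlation with the others was 0.019 with and 0.043 without the ETS letters, 0.0010 and 0.038 for YY1, and 0.0053 and 0.036 for NRF1. A match is only a stretch of letters, and no binding was measured.

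Averaged over the 72 genes, the log ratio of a strain ran from −0.02 in BXD8 through a median of 0.05 to 0.16 in BXD32, with an SD of 0.045 over strains. The same average ran from −0.31 in BXD8 to 0.46 in BXD32 for oxidative phosphorylation genes, with an SD of 0.174. For cytosolic ribosomal proteins it ran from −0.36 in BXD8 to 0.69 in BXD32, with an SD of 0.291. BXD8 was thus lowest and BXD32 highest for all 3 sets, and the mitochondrial ribosomal mean had the smallest SD of the 3. BXD8 is among the 7 arrays and BXD32 among the 16, and these SDs include differences between array groups. On the 16, 7 and 8 arrays the cytosolic ribosomal mean averaged 0.319, −0.209 and −0.140, with SDs of 0.172, 0.151 and 0.105. For oxidative phosphorylation these were 0.144, −0.145 and −0.100, with SDs of 0.129, 0.114 and 0.065. For the 72 genes they were 0.067, 0.062 and 0.028, with SDs of 0.050, 0.046 and 0.020. The number of members above 0 was 31 in BXD8, 48 in BXD6 and BXD32, and 43 at the median. Small-subunit means ran from −0.09 in BXD16 to 0.23 in BXD5, and large-subunit means from −0.00 in BXD24 to 0.16 in BXD32.

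Correlations between such means are given within array groups, because the groups form separate clusters. On the 16 arrays, the mean of the 72 genes followed that of oxidative phosphorylation genes with r = 0.825 (rho = 0.744) and that of cytosolic ribosomal proteins with r = 0.753 (rho = 0.712). Without the 2 arrays farthest out, r was 0.758 and 0.621. On the 7 arrays r was 0.528 (rho = 0.679) and 0.517 (rho = 0.714), with 0.580 and 0.565 without the 2 farthest. On the 8 it was 0.292 and 0.317, and it turned to −0.789 and −0.545 without the 2 farthest arrays. The relation thus had a positive r on the 16 and the 7 arrays with and without those arrays, and rested on 2 arrays in the 8. The mean of all named genes varied less, with an SD of 0.0060 on the 16 arrays. It too was higher in BXD32 (−0.021) than in BXD29 (−0.035), the highest and lowest of the 16 for the 72 genes. How far the relation to these 2 sets goes beyond one with all named genes was not tested. The large-subunit and small-subunit means followed each other with r = 0.448 on the 16 arrays, 0.863 on the 7 and 0.443 on the 8, and without the 2 farthest arrays r was 0.452, 0.158 and 0.238.

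Gene by gene, 48 of the 72 members (66.7%) correlated positively with the oxidative phosphorylation mean over the centred arrays, against 50.5% of other genes. For the cytosolic ribosomal mean these were 53 members (73.6%) and 49.7% of other genes. The members that followed oxidative phosphorylation most were Mrps14 at r = 0.733, Mrps6 at 0.695, Mrpl41 at 0.627 and Mrps24 at 0.587. With the cytosolic ribosomal mean the same 4 genes correlated at 0.719, 0.672, 0.558 and 0.481, so they followed both means. Within each array group the 2 means had the same lowest and the same highest strain, and the 2 relations were not separated. Mrps14, the relative of bacterial S14, ranged from −0.32 in BXD8 through 0.41 to 0.96 in BXD32, the strains with the extreme oxidative phosphorylation means. Mrps14, like Mrps6, is a member whose bacterial relative belongs to the small subunit, whereas Mrpl41 belongs to the mitochondrial additions.

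**Figure D5:**
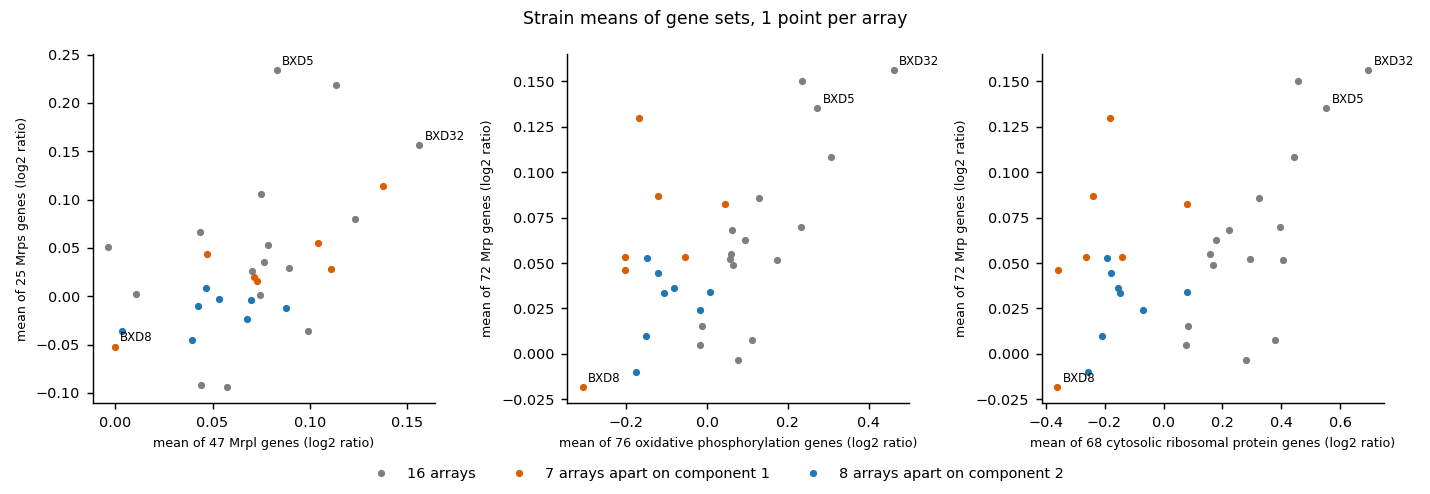
Mean log ratio (taken as log2) per strain of large-subunit against small-subunit genes and of all 72 genes against oxidative phosphorylation and cytosolic ribosomal genes. Each point is 1 array, coloured by array group. On the 16 arrays the mean of the 72 genes correlates with that of oxidative phosphorylation genes at 0.825.

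Markers of brain cell types were set beside these means. On the 16 arrays the mean of 5 of 5 astrocyte markers, Gfap, Aqp4, Slc1a3, Aldoc and Gja1, was inversely related to the small-subunit mean, with r = −0.835 (rho = −0.841, and −0.754 without the 2 farthest arrays). With the large-subunit mean r was −0.246. On the 7 and the 8 arrays r with the small-subunit mean was −0.025 and −0.543. The marker mean ran from −0.58 to 0.08 on the 16 arrays, −0.49 to −0.16 on the 7 and −0.30 to −0.06 on the 8. Over all arrays these markers differed in sign. Means were −0.99 for Gja1, −0.36 for Aldoc, −0.09 for Slc1a3 and 0.22 for Gfap, and Aqp4, at 0.05, was not called. The median SD of the markers was 0.17 and the highest 0.56. The SE was 0.096 for Gja1 and 0.029 to 0.039 for the others. Gja1 thus varied most, and how far the relation rested on this gene was not tested. The part of the marker mean in the small-subunit means was not tested. With the mean of the 72 genes r was −0.672 on the 16 arrays. For the other marker lists, r with the small-subunit mean on the 16 arrays was −0.351 for neurons, −0.102 for oligodendrocytes, 0.262 for microglia, 0.012 for endothelium, 0.121 for choroid plexus, −0.118 for pituitary and 0.191 for blood. On the 7 arrays it was −0.759 for microglia, 0.792 for endothelium and 0.761 for oligodendrocytes, the largest there. Without the 2 farthest of these 7 arrays it was −0.513, 0.714 and 0.596. On the 8 arrays it was −0.341, −0.00093 and 0.026 for the same lists. For neurons, choroid plexus, pituitary and blood it was −0.122, 0.392, 0.126 and −0.192 on the 7 arrays. On the 8 arrays these lists were at 0.407, 0.243, −0.039 and −0.429. The part of these cell types in the small-subunit means was not tested either.

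Genes that work with the mitochondrial ribosome gave calls in both directions too, against the same background of 76.1% (42.1% positive, 33.9% negative). Of a list of 8 genes, for ribosomal proteins under other symbols and Oxa1l, 4 were measured, and 2 more were members as Mrpl57 and Mrpl58. Dap3, a GTP-binding protein of the small subunit, was positive at 0.43 ± 0.066 (SE) and Chchd1 negative at −0.51 ± 0.086 (SE). Oxa1l, the inner membrane insertase that receives new chains, was positive at 0.20. Of 12 translation factors 7 were measured (2 positive, 3 negative), with the recycling factor Mrrf at −0.86, the formyltransferase Mtfmt at −0.54, and the initiation factors Mtif2 at 0.21 and Mtif3 at −0.21. Assembly and RNA modification factors were mostly positive, with 8 positive and 2 negative of 14 measured from 18. They included Malsu1, a large-subunit assembly factor, at 0.41, the RNA methyltransferase Nsun4 at 0.25, and on the negative side Rbfa at −0.29 and Fastkd2 at −0.20. Of 17 mitochondrial aminoacyl-tRNA synthetases, which charge the transfer RNAs, 8 were measured (3 positive, 2 negative), from Tars2 at 0.42 to Yars2 at −0.40.

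For the transcription and upkeep of mitochondrial DNA, 12 of 16 genes were measured, and 4 were positive and 5 negative. Tfam, which packs the DNA and starts transcription, was at −0.88, the nuclease Mgme1 at −0.96, the polymerase Polg at −0.28 and the transcription factor Tfb2m at 0.54. Of 10 nuclear regulators 9 were measured, 2 positive and 6 negative, where 42.1% of all features were positive and 33.9% negative. The lowest was the nuclear receptor Esrra at −1.18 ± 0.038 (SE), followed by Nrf1, named here because its motif was searched, at −0.72 ± 0.16 (SE), Yy1 at −0.55, the GABP subunit Gabpa at −0.49 and the coactivator Pprc1 at −0.36. Sp1 was negative too, at −0.23. The 2 positive ones were Myc at 0.26 and Ppargc1a at 0.12, and the GABP subunit Gabpb1, at 0.02, was not called. The array places of these probes are not given here. A relation between regulators and mitochondrial ribosomal genes was not tested. Calls were 34 positive and 21 negative of 76 oxidative phosphorylation genes, and 34 positive and 17 negative of 68 cytosolic ribosomal genes.

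The named genes outside the set whose values were most like the mean of the 72 genes, over 31 centred arrays, were 2310010J17Rik with r = 0.800, the proteasome-associated protease gene Usp14 with 0.773, the ferritin light chain gene Ftl1 with 0.773, Trappc6b with 0.772, Adam22 with 0.751, Acp1 with 0.728, 4933428C19Rik with 0.723 and Tro with 0.721. These 8 were chosen for likeness among all named genes, and their correlations are a description.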

How the data were processed

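RNA from whole brain of 31 BXD/TyJ strains was compared with C57BL/6J RNA on 31 arrays, 1 per strain. The authors deposited a log ratio, read here as log2, for each of 23040 spots. The submitters' processing notes name R 2.0.0 and limma. For background correction and normalisation, the method was not given in the sources used. Sorted values were identical on all arrays, as quantile normalisation leaves them. The direction, strain over C57BL/6J, follows the order of channels and the titles. Without intensities, dim or saturated probes could not be identified. The number of arrays limits the precision.

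Symbols came from the platform annotation, with 16874 spots of 1 symbol, 134 of several and 6032 of none, and all 72 members matched RefSeq (GRCm38.p6) by Entrez identifier. Averaging the probes of each gene gave 15096 named genes and 21262 features. Means were tested against 0 (two-sided) with limma 3.58.1 in R 4.3.3 over all features, adjusted by Benjamini-Hochberg at 0.05, and with treat against 1.2-fold. The p-values measure the spread between 31 single arrays of pooled RNA, which may be partly technical. Correlations, variances and motif counts were computed in Python 3.11.15. Correlations of genes over 31 arrays used values centred within 3 array groups, except where stated. These groups were found by the widest gap in the component scores. SDs were not centred except where stated, and correlations of strain means were computed within each group. The limma fit and the correlation measures were tested on simulated data. Genes named with values were the 6 highest and 6 lowest means, the 5 highest and 4 lowest mean correlations, the 4 widest and 2 narrowest SDs, genes of 1 sign on all arrays, and up to 4 genes of each list by adjusted p. Other genes were named after their values were seen. The members and lists were chosen with earlier results of these data known. Alternatives changed the centring, the arrays used, the weight of array groups, the probe place, the probe rule, the threshold and the correlation measure.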

Additional observations from a re-analysis of the deposited data

How the results depend on the processing

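The count of mean calls stayed within 1.5 times of 47 under each alternative except the threshold of 1.2-fold, which left 18 genes, 13 Mrpl and 5 Mrps. It was 50 with each array centred on its median, 55 without the 7 arrays, 55 on the 16 arrays, 53 with array groups weighted equally, 42 of 67 without the eighth place and 46 with the first probe of each gene. On the 16 arrays 41 of the 47 genes were also called, and 1 of them, Mrpl54, had the opposite sign there, at −0.07 (limma adjusted p = 0.048) against 0.08 over all arrays. Of the 24 members named by the rule, 3 passed only on the 16 arrays in this comparison: Mrpl32 at −0.16, Mrpl41 at 0.19 and Mrpl52 at 0.30, with limma adjusted p of 0.0034, 0.022 and 0.010.

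Correlations and spreads were read against their range over omissions of 1 array: 0.024 to 0.033 for the 72 genes, 0.0039 to 0.011 for the large subunit, 0.046 to 0.078 for the small, 0.031 to 0.042 across subunits, and 0.26 to 0.29 for the median SD. On the 16 arrays the mean correlations of the 72 genes, the small subunit and across subunits were 0.039, 0.140 and 0.044, above these ranges, and the small subunit was at 0.103 without the 7 arrays. Without centring the 72 genes, the large subunit and pairs across were at 0.015, −0.0024 and 0.022. With 3 principal components removed the 72 genes, large, small and across values were 0.0048, −0.0080, 0.036 and 0.0088. Without the eighth place the 72 genes and pairs across were at 0.024 and 0.026, and by Spearman the large subunit was at 0.014. With Mrps30 and Mrps18a moved, a setting chosen after seeing the data, the small subunit was at 0.086. The median SD was 0.22 centred, 0.23 on the 16 arrays and 0.24 from the interquartile range. The cause of these shifts was not tested. No paired analysis was possible because there is 1 group of strains. With 1 array per strain, no replicate of a strain and no intensities, neither the error of a single value nor signal over background could be given.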
